A study of Mus musculus with 12 samples.

Results

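The 50 genes described here encode the subunits of the proteasome and the proteins that assemble, open or inhibit it. They were taken as the genes of all probe sets with 1 symbol that begins with Psma, Psmb, Psmc, Psmd, Psme, Psmf or Psmg and a digit, out of 19938 genes so named on the array. Where a gene had several probe sets, the one brightest on average over the 12 arrays was used. Of these genes, 48 lay above the filter on dim probe sets and were tested among 12980 genes. Psma8, the alpha subunit of germ cells, and Psmb11, the catalytic subunit of thymic epithelium, lay below it. The rule also takes 2 genes whose products are no subunits: Psmc3ip, a cofactor of meiotic recombination, and Psme3ip1, which binds PA28 gamma.

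The proteasome is the protease that degrades ubiquitin-tagged proteins. Its 20S core is a barrel of outer rings of alpha and inner rings of beta subunits, of which Psmb5, Psmb6 and Psmb7 cut peptides. A 19S cap of ATPases and non-ATPase subunits binds ubiquitin chains, unfolds the substrate and feeds it to the core. In leukocytes and under interferon, Psmb8, Psmb9 and Psmb10 replace Psmb5, Psmb6 and Psmb7 in an immunoproteasome that makes peptides for MHC class I. PA28 and PA200 are other caps that open the core without ubiquitin. Erythroid precursors use the ubiquitin-proteasome pathway to clear proteins as they become reticulocytes.

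RNA came from spleen cells of 3-month-old mice sorted as Ter119-positive with high CD71, the transferrin receptor of erythroblasts. The 12 arrays fall into 4 genotypes with 3 labelled biological replicates each: wild type (WT) and mice labelled as lacking E2f8 (E2f8 KO), Rb (Rb KO) or both (DKO). Rb1 codes for the retinoblastoma protein, a brake on E2F factors, and E2f8 for a repressing E2F. The sources used here do not give the alleles, any Cre driver or the strain. Values are log2 signals. The small number of arrays limits the precision, and p-values measure the spread between these arrays.

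Erythroid markers were high in all groups, with a mean over 14 measured genes between 12.04 and 12.78 in the 12 arrays. Rb1 and E2f8 themselves went against the labels in part. Rb1 averaged 12.82 in WT, 12.42 in Rb KO, 11.71 in E2f8 KO and 12.12 in DKO, and E2f8 averaged 11.95, 12.19, 12.81 and 13.13 in the same order. The sources used here do not say whether their probe sets lie in the deleted parts, so a genotype name below means arrays carrying that label, and each direction depends on it. Leukocyte markers also differed. The mean of 15 B cell markers lay between 10.35 and 11.88 in WT, 9.79 and 11.91 in Rb KO, 7.94 and 8.33 in E2f8 KO, and 6.36 and 7.46 in DKO. Granulocyte markers (15 genes) lay between 6.23 and 6.35 in WT, 6.74 and 6.83 in Rb KO, 8.13 and 8.55 in E2f8 KO, and 6.76 and 10.15 in DKO. For 18 macrophage and monocyte genes the mean spanned 9.39 to 10.27 in WT, 8.86 to 9.14 in Rb KO and 8.53 to 8.61 in E2f8 KO, and was 7.63 ± 0.32 (SD, n = 3) in DKO, so that Rb KO lay below WT without overlap. In Rb KO against WT the median of the 17 tested was -0.95 and 0 were called. Replicate 1 of Rb KO, at 9.79 for B cell markers, and replicate 3 of DKO, at 10.15 for granulocyte markers, stood apart from their groups.

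Promoter sequences are shown for Psmb5 and for the immunoproteasome genes Psmb8, its replacement, and Psmb9, since Psmb8 and Psmb9 fell in DKO while Psmb5 was not called. Each is the 120 bases before the transcript start of RefSeq on GRCm38.p6, in the direction of the gene. Capitals mark matches to the motifs searched.
Psmb5, minus strand of chr14:54617996-54618115: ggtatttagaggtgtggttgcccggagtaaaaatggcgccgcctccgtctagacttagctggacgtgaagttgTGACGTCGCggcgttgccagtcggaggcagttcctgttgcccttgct
Psmb8, plus strand of chr17:34198075-34198194: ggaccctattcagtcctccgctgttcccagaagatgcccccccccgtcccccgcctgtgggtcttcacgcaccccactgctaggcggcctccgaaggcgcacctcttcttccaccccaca
Psmb9, minus strand of chr17:34187331-34187450: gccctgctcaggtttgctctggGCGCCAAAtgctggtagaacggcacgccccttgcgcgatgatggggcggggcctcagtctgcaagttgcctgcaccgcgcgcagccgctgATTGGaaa
In Psmb5 the capitals match TGACNNNGC, the core of the antioxidant response element bound by Nfe2l1 and Nfe2l2. In Psmb9 they match, on the other strand, TTTGGCGC, an E2F motif, and CCAAT, the NF-Y motif. The Psmb8 stretch holds none of the motifs searched.

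Of the 50 genes, 42 had a promoter window in the RefSeq table, from 250 bases before to 50 after the start. TGACNNNGC was found on either strand in 6 of these 42 (14.3%) and in 14% of 27025 genes with a window. Among the standard core and cap genes it was found in 4 of 25, Psmb5, Psmb6, Psmc6 and Psmd12. CCAAT was found in 16 of 42 (38.1%), against 41.1% of all genes. The core of the interferon-stimulated response element, a pair of GAAA with any 2 bases between, was found in 5 of 42 (11.9%), against 3.99% of all genes, and in none of Psmb8, Psmb9 and Psmb10 (0 of 3). TTTGGCGC was found in Psmb9 alone among the 42 (2.38%, against 0.585% of all genes), and TTTCGCGC in 0 (0.374% of all genes). The NF-kB core GGAANTCCC was found in 0 of 42, against 1.92% of all genes. A match is a match of letters and not a bound site.

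**Figure D1:**
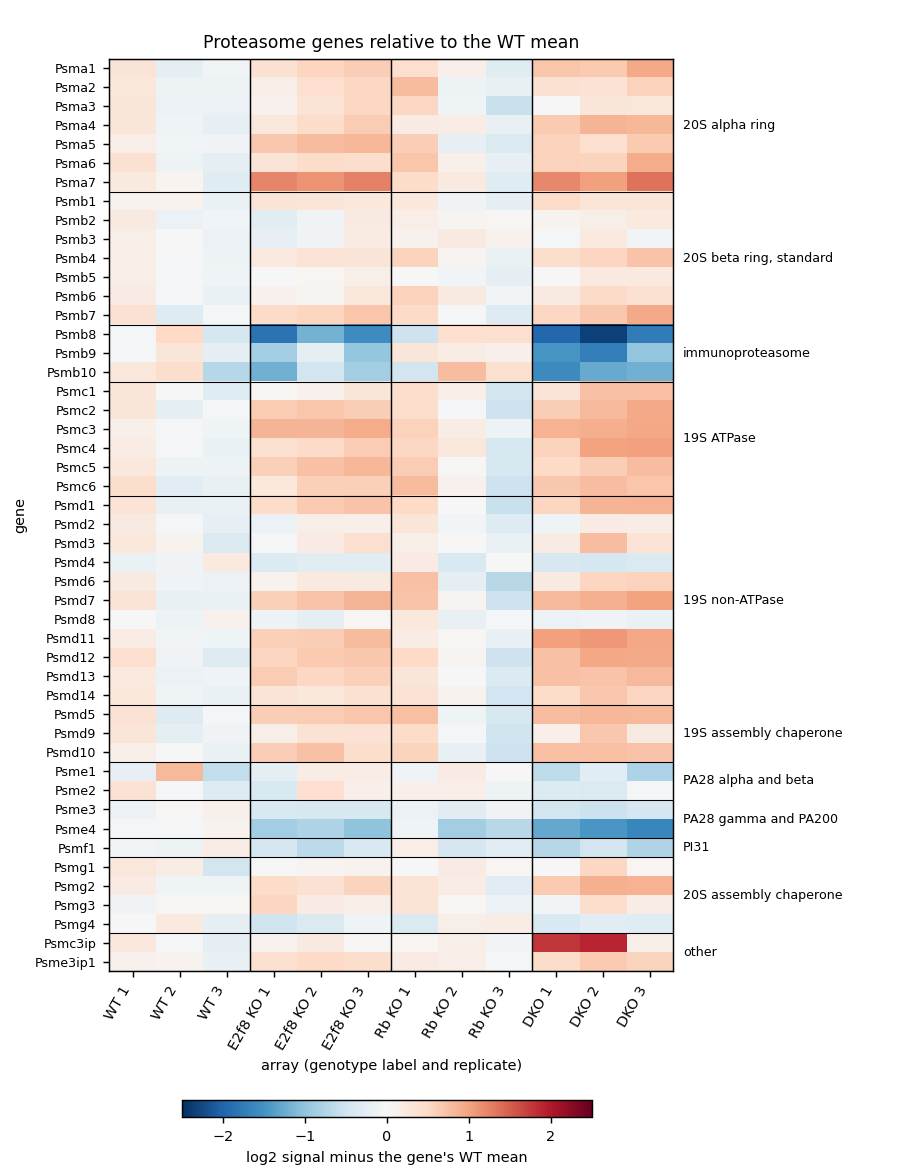
Log2 signal of the 48 tested genes (rows, by role) in the 12 arrays (columns, 3 per genotype label), as the difference from the gene's mean in WT. Psmb8, Psmb9, Psmb10 and Psme4 are lower in the DKO arrays, and most subunits of the core and cap are higher there and in replicate 1 of Rb KO than in its other arrays.

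DKO against WT, which differ by both labels, gave 27 changed genes among the 48, 21 higher and 6 lower. Over all 12980 genes 38.2% were called, 20.6% higher and 17.6% lower. The arrays of the 2 groups did not overlap for 26 higher and 8 lower of the 48 genes, against 45.9% of all genes (24.5% higher and 21.4% lower). The median log2 difference was 0.50 over the proteasome genes and 0.00 over all genes, and 0.36 and 0.01 with quantile normalization. All 6 genes that fell were an immunoproteasome catalytic gene, an alternative activator or the inhibitor. Of the 31 standard subunits of core and cap, 16 rose and 0 fell (51.6%), with a median of 0.60. With quantile normalization the cap gene Psmd4 was called lower (-0.59, adjusted p = 0.025). Leaving out replicate 2 of WT gave 17 changed genes, 11 higher and 6 lower, while 28.1% of all genes were called. Of the 27 calls, 15 held in each of 22 alternatives: Psma1, Psma4, Psma7, Psmb8, Psmb9, Psmb10, Psmc3, Psmc4, Psmd11, Psmd13, Psme3, Psme4, Psmf1, Psmg2 and Psme3ip1. All tests here and below are limma's, with n = 3 arrays per group and Benjamini-Hochberg adjustment over all genes tested, and ± is the standard error of a difference unless SD is given. In such bulk samples, fewer cells of a type and less RNA per cell cannot be told apart.

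The alpha ring, which gates entry to the core, had 4 of 7 genes that rose in DKO against WT (57.1%, against 20.6% of all genes). None of the 7 lay below 0. Psma7, an alpha subunit, was at 8.63, 8.47 and 8.08 in the WT arrays and at 9.60, 9.42 and 9.75 in the DKO arrays. The groups did not overlap. It rose by 1.20 ± 0.21 (adjusted p = 0.000892, a fold change of 2.29). Psma4 rose by 0.78 ± 0.19 (adjusted p = 0.0055), from 8.76, 8.34 and 8.24 to 9.10, 9.30 and 9.28. Psma1 rose by 0.77 ± 0.20 and Psma6 by 0.68 ± 0.23. Psma1 lay at 11.00, 10.45 and 10.61 in WT, with replicate 1 the highest, and at 11.39, 11.35 and 11.64 in DKO. Psma3, whose 3 probe sets gave differences of 0.19 to 0.20, lay at 10.40, 9.95 and 9.94 in WT and at 10.08, 10.39 and 10.38 in DKO and was not called (0.19 ± 0.24, adjusted p = 0.613).

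In the beta ring 2 of 7 standard genes rose in DKO against WT (28.6%), a share near the 20.6% of all genes that rose. Psmb7, which carries the trypsin-like site, rose by 0.72 ± 0.23 (adjusted p = 0.0242), from 10.20, 9.49 and 9.77 to 10.35, 10.49 and 10.77. Psmb4, a noncatalytic beta subunit, rose by 0.56 ± 0.18, from 10.71, 10.52 and 10.43 to 10.99, 11.08 and 11.26. The other standard catalytic genes were not called. Psmb5, of the chymotrypsin-like site, was at 12.26, 12.08 and 12.01 in WT and at 12.13, 12.36 and 12.36 in DKO, a difference of 0.17 ± 0.11 (adjusted p = 0.279). Psmb6, of the caspase-like site, was at 9.54, 9.29 and 9.16 in WT and at 9.55, 9.81 and 9.70 in DKO (0.36 ± 0.19, adjusted p = 0.153). Psmb3, a noncatalytic subunit at 12.32, 12.20 and 12.02 in WT and at 12.16, 12.41 and 12.12 in DKO, differed by 0.05 ± 0.13. The calls of Psmb4 and Psmb7 were each lost without replicate 2 or 3 of WT and without replicate 2 or 3 of DKO, at adjusted p from 0.0551 to 0.0907 for Psmb4 and from 0.055 to 0.113 for Psmb7.

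The 3 measured immunoproteasome genes all fell in DKO against WT, where 17.6% of all genes fell. Psmb8 was at 8.11, 8.66 and 7.72 in WT and at 6.20, 5.83 and 6.42 in DKO. Every DKO array lay more than 1 log2 unit below every WT array. It fell by 2.01 ± 0.30 (adjusted p = 0.000263, a fold change of 4.03). The DKO values of Psmb8 lie near the filter level of 5.84, with replicate 2 just below it, so the size of its fall is uncertain. Psmb9 fell by 1.40 ± 0.24 (adjusted p = 0.000657), from 8.73, 9.06 and 8.51 to 7.28, 7.05 and 7.78. Psmb10 fell by 1.36 ± 0.34 (adjusted p = 0.00693), from 8.49, 8.65 and 7.50 to 6.62, 6.95 and 7.01. Replicate 3 of WT was the lowest WT array for all 3 genes, and its B cell marker mean of 10.35 was also the lowest of WT.

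Since each immunoproteasome gene replaces a standard one, the log2 signal of the standard gene was subtracted within each array and set to 0 at the WT mean. For Psmb8 minus Psmb5 the group means were -2.18 ± 0.35 (SD, n = 3) in DKO, -1.59 ± 0.31 in E2f8 KO and 0.20 ± 0.64 in Rb KO, with an SD of 0.47 in WT. Psmb9 minus Psmb6 gave -1.76 ± 0.42, -0.85 ± 0.48 and -0.04 ± 0.23, with an SD of 0.30 in WT. For Psmb10 minus Psmb7 the values were -2.07 ± 0.12, -1.42 ± 0.35 and 0.19 ± 0.98, with an SD of 0.72 in WT. In all 3 pairs the DKO arrays lay below every WT and Rb KO array. The difference shows unequal change of the 2 genes, and no test was made of it.

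**Figure D2:**
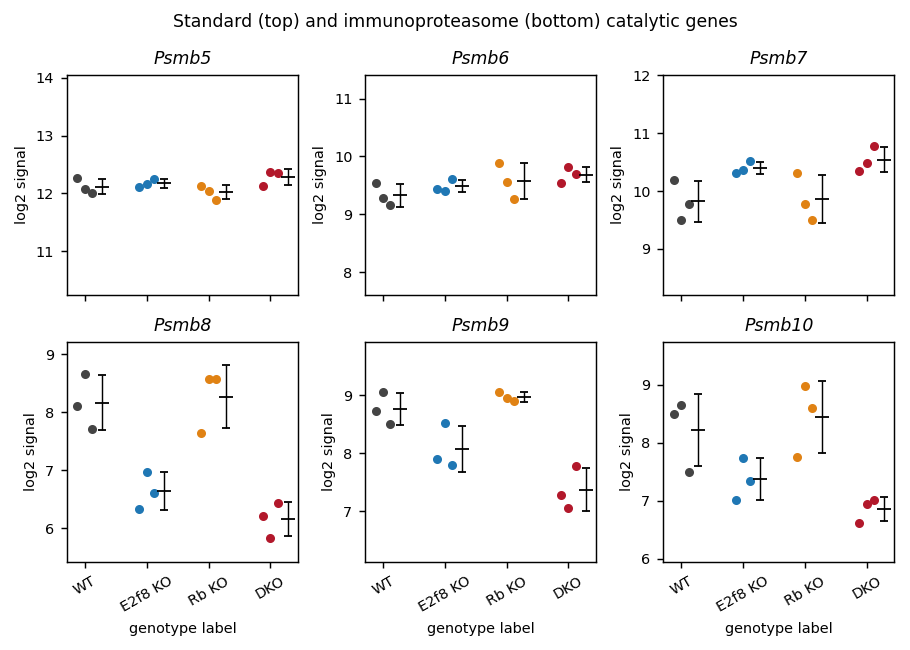
Log2 signal of the standard catalytic genes (top) and of the immunoproteasome genes that replace them (bottom) in the 4 genotype labels. Points are arrays in the order of replicates 1 to 3, the dash is the mean and the bar 1 SD (n = 3), and every panel spans the same range. Psmb8 is at 5.83 to 6.42 in DKO and at 7.72 to 8.66 in WT, while Psmb5 stays between 11.89 and 12.36 in all arrays.

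Values of leukocyte markers stand beside these differences. All 15 B cell markers fell in DKO against WT, with a median of -4.55. So did 16 of 17 macrophage and monocyte markers (median -2.59) and 8 of 8 T and NK cell markers (median -1.75). Of 14 tested granulocyte markers 10 rose. Over all genes 17.6% fell and 20.6% rose. The mean of Psmb8, Psmb9 and Psmb10 was 8.44, 8.79 and 7.91 in WT, 8.15, 8.84 and 8.70 in Rb KO, 7.08, 7.75 and 7.25 in E2f8 KO, and 6.70, 6.61 and 7.07 in DKO. Within Rb KO, replicate 1 had the lowest immunoproteasome mean and the lowest B cell mean, 9.79 against 11.91 and 11.88. The genes differed there: Psmb8 (7.64, 8.58 and 8.58) and Psmb10 (7.76, 8.98 and 8.61) were lowest in replicate 1. Psmb9 (9.06, 8.96 and 8.90) was highest in that array. In DKO, granulocyte markers stood at 6.76, 7.99 and 10.15 and B cell markers at 6.36, 6.75 and 7.46 in replicates 1 to 3. The immunoproteasome means spanned 6.61 to 7.07 and were also highest in replicate 3. The standard subunits went the other way within Rb KO: their mean was 10.12 in replicate 1 against 9.71 and 9.39. In WT they did not: replicate 3 was lowest in the standard subunits (9.55), in B cell markers (10.35) and in the immunoproteasome genes (7.91). The part of leukocyte RNA in the differences of proteasome genes was not tested.

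**Figure D3:**
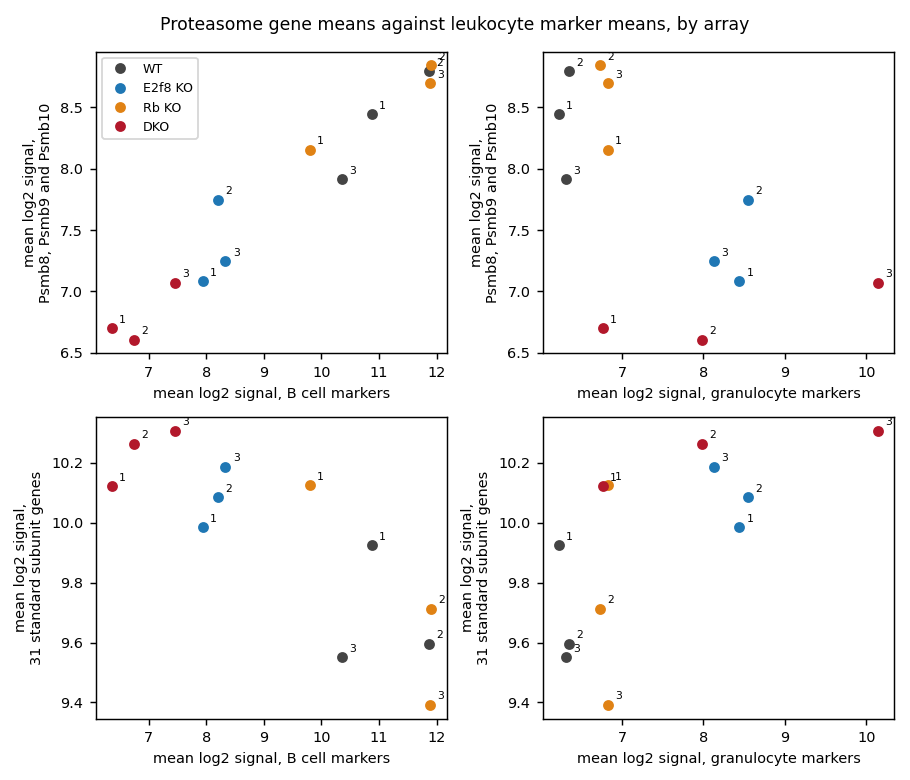
Mean log2 signal of Psmb8, Psmb9 and Psmb10 (top) and of the 31 standard core and cap genes (bottom) against the means of B cell (left) and granulocyte markers (right). Each point is 1 of the 12 arrays, coloured by genotype label and numbered by replicate. The DKO arrays are lowest in B cell markers, between 6.36 and 7.46, and in immunoproteasome means, between 6.61 and 7.07.

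In the 19S cap, 4 of 6 ATPase genes rose in DKO against WT (66.7%, against 20.6% of all genes), and the median of the 6 was 0.75. Psmc3 was at 8.87, 8.72 and 8.64 in WT and at 9.61, 9.65 and 9.70 in DKO, so that the groups lay apart with a narrow spread in each. It rose by 0.91 ± 0.18 (adjusted p = 0.00162). Psmc4 rose by 0.87 ± 0.23 and Psmc2 by 0.79 ± 0.23. Psmc2 lay at 8.92, 8.35 and 8.55 in WT and at 9.23, 9.42 and 9.54 in DKO, with replicate 1 of WT nearest to DKO, and lost its call without replicate 3 of DKO or replicate 2 of WT. Psmc5 rose by 0.63 ± 0.23 (adjusted p = 0.046), a call lost in 13 of 22 alternatives. Psmc1 (0.60 ± 0.24, adjusted p = 0.0641) and Psmc6 (0.71 ± 0.29, adjusted p = 0.0686) were not called. Psmc6 lay at 9.45, 8.74 and 8.82 in WT and at 9.67, 9.77 and 9.69 in DKO, so that replicate 1 of WT again came nearest to DKO.

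Of the 11 non-ATPase cap genes, 6 rose in DKO against WT (54.5%, against 20.6% of all genes). Psmd11, a scaffold subunit of the lid, was at 10.06, 9.80 and 9.77 in WT and at 10.90, 10.96 and 10.85 in DKO, and rose by 1.02 ± 0.15 (adjusted p = 0.000248). Psmd13, another lid subunit, rose by 0.75 ± 0.17 (adjusted p = 0.00422), from 10.41, 10.02 and 10.09 to 10.91, 10.88 and 10.99. Psmd7, partner of the deubiquitinase subunit, rose by 0.90 ± 0.26, Psmd12 by 0.89 ± 0.25 and Psmd1, a large scaffold of the base, by 0.75 ± 0.23. Psmd14, the deubiquitinase itself, rose by 0.55 ± 0.20 (adjusted p = 0.0416), a call lost in 11 of 22 alternatives. Not every cap gene went this way. Psmd4, a ubiquitin receptor, was at 9.78, 9.86 and 10.18 in WT and at 9.53, 9.50 and 9.57 in DKO (-0.40 ± 0.17, adjusted p = 0.0852). It was called lower with quantile normalization and without replicate 1 of Rb KO (adjusted p = 0.025 and 0.0489). Psmd8 (-0.13 ± 0.15) and Psmd2 (0.10 ± 0.18, and 0.02 by its second probe set) were not called. Psmd2, at 10.98, 10.73 and 10.56 in WT and 10.65, 10.97 and 10.95 in DKO, overlapped between the groups.

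**Figure D4:**
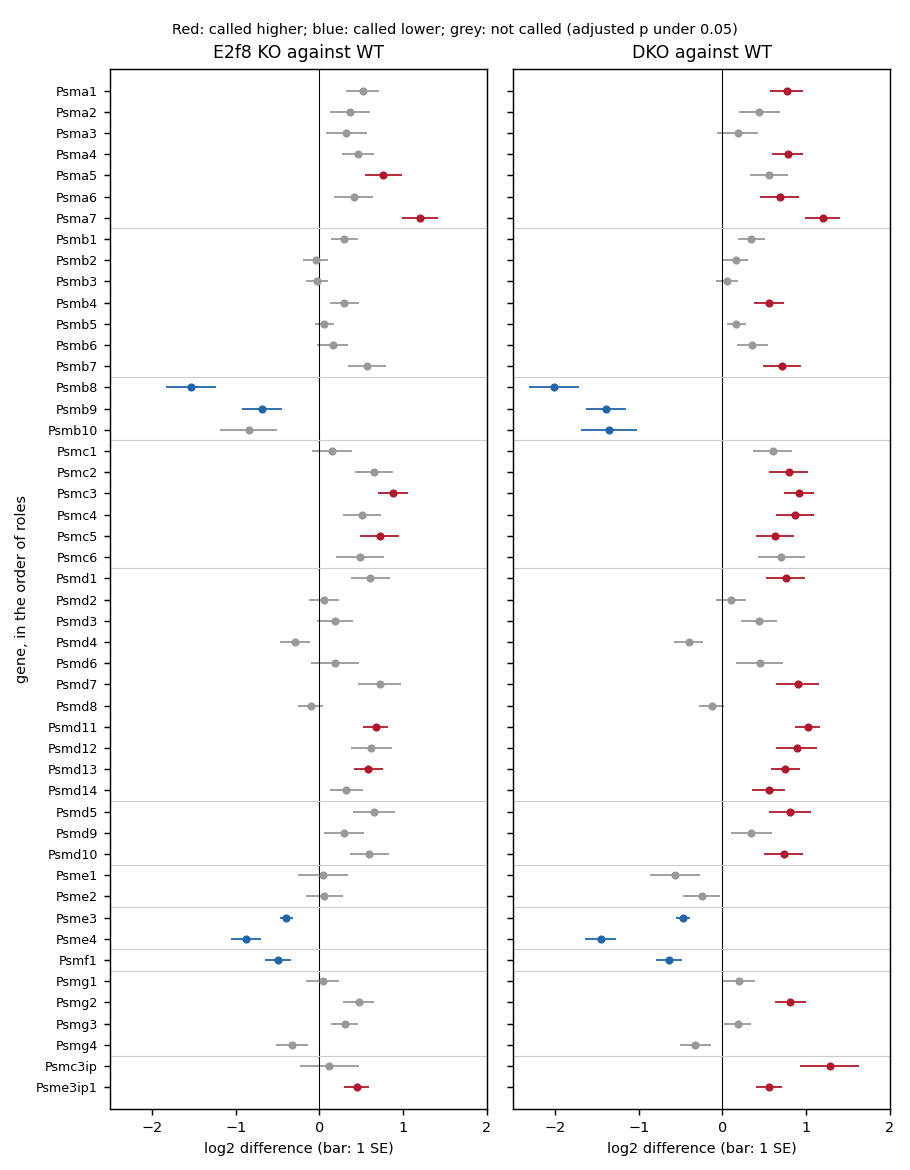
Log2 difference of each tested gene in E2f8 KO against WT (left) and DKO against WT (right), in the order of roles, with bars of 1 SE (n = 3 per group). Red and blue mark genes called higher and lower, and grey those not called. The lowest value in both panels is that of Psmb8, at -1.53 and -2.01. Both comparisons share the WT arrays.

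Genes of assembly factors differed among themselves. Psmg2, of a chaperone that pairs with Psmg1 to build the alpha ring, was at 9.34, 9.03 and 9.03 in WT and at 9.79, 10.02 and 10.01 in DKO, a rise of 0.81 ± 0.19 (adjusted p = 0.00414). Its partner Psmg1, at 7.20, 7.11 and 6.46 in WT and 6.93, 7.44 and 6.98 in DKO, differed by 0.19 ± 0.20 (adjusted p = 0.503). The remaining chaperone pair, Psmg3 (0.18 ± 0.16) and Psmg4 (-0.32 ± 0.19), was not called. Psmg4 lay at 8.02, 8.28 and 7.79 in WT and at 7.65, 7.76 and 7.72 in DKO. Of the chaperones of the cap base, Psmd5 rose by 0.81 ± 0.25, from 10.79, 10.10 and 10.38 to 11.20, 11.26 and 11.24. Psmd10 rose by 0.73 ± 0.23, from 9.49, 9.36 and 9.18 to 10.09, 10.09 and 10.05. Both were called in DKO with a narrow spread, but lost the call in 4 and 6 of 22 alternatives. Psmd9, at 7.85, 7.32 and 7.46 in WT and 7.67, 8.22 and 7.77 in DKO, differed by 0.35 ± 0.24 (adjusted p = 0.296).

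PA200, PA28 gamma and the inhibitor fell in DKO against WT, while the interferon-induced PA28 genes were not called. Psme4, which encodes PA200, an activator that stimulates degradation without ubiquitin, was at 11.65, 11.64 and 11.78 in WT and at 10.40, 10.24 and 10.06 in DKO. It fell by 1.46 ± 0.18 (adjusted p = 9.59e-05), the smallest adjusted p among the 48 genes in this comparison. Psme3, of the nuclear activator PA28 gamma, was at 13.61, 13.78 and 13.88 in WT and at 13.31, 13.21 and 13.34 in DKO, and fell by 0.47 ± 0.08 (adjusted p = 0.000681). Psmf1, of the inhibitor PI31, fell by 0.64 ± 0.16 (adjusted p = 0.00617), from 12.29, 12.23 and 12.55 to 11.64, 11.90 and 11.61. Psme1, of PA28 alpha, lay at 8.71, 9.73 and 8.30 in WT and at 8.28, 8.63 and 8.13 in DKO (-0.56 ± 0.30, adjusted p = 0.164), with replicate 2 of WT far above the others. Psme2, of PA28 beta, lay at 10.48, 10.06 and 9.80 in WT and at 9.78, 9.76 and 10.06 in DKO, and differed by -0.25 ± 0.22 (adjusted p = 0.428).

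**Figure D5:**
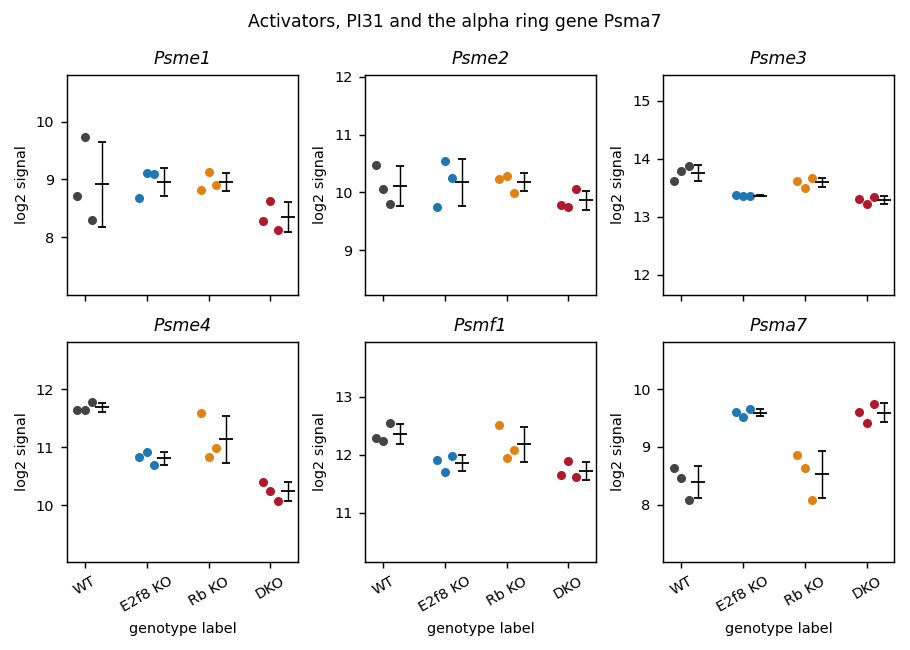
Log2 signal of 4 activator genes, of Psmf1 (PI31) and of the alpha ring gene Psma7 in the 4 genotype labels. Points are arrays in the order of replicates 1 to 3, the dash is the mean and the bar 1 SD (n = 3), and every panel spans the same range. Psme4 falls from 11.64 to 11.78 in WT to 10.06 to 10.40 in DKO, and replicate 1 of Rb KO, at 11.60, lies with WT.

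E2f8 KO against WT, which differ by the E2f8 label alone, gave 12 changed genes, 7 higher and 5 lower. That is 25% of the 48, near the 26.1% of all genes called (11.9% higher and 14.2% lower). Groups did not overlap for 20 higher and 5 lower of the 48 genes, against 45.8% of all genes (22.3% higher and 23.5% lower). The median was 0.30 over the 48 genes and 0.06 over all genes. Of the 31 standard subunits 6 rose (19.4%) and 0 fell. Psma7 was at 9.61, 9.53 and 9.65 in E2f8 KO, above every WT array, and rose by 1.20 ± 0.21 (adjusted p = 0.0027). Psmc3 rose by 0.88 ± 0.18 (adjusted p = 0.00503) to 9.59, 9.60 and 9.67, and Psmd11 by 0.67 ± 0.15 (adjusted p = 0.00737) to 10.48, 10.50 and 10.67. Psma5 (0.76 ± 0.22), Psmc5 (0.72 ± 0.23) and Psmd13 (0.58 ± 0.17) were also called, at adjusted p = 0.0253, 0.0358 and 0.0257, and Psme3ip1 rose by 0.44 ± 0.15 (adjusted p = 0.0485, lost in 13 of 22 alternatives), from 9.20, 9.17 and 8.89 to 9.48, 9.58 and 9.53.

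The number of calls in E2f8 KO depended on single arrays, and the share called over all genes moved with it. Without replicate 2 of WT the number was 6, where 11.8% of all genes were called in place of 26.1%. Without replicate 1, 2 or 3 of E2f8 KO it was 6, 7 and 6 (14.5%, 15.7% and 16.9% of all genes). Without replicate 1 or 3 of Rb KO, which enter only the shared estimate of spread, it was 22 and 20 (33.8% and 27.8%). It was 21 with a fit of these 2 groups alone (33.2%) and 32 with array weights (51.2%). Psma7, Psmc3, Psmd11, Psmb8, Psme3 and Psme4 were called in each of 22 alternatives.

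Psmb8 was at 6.32, 6.97 and 6.60 in E2f8 KO, and fell by 1.53 ± 0.30 (adjusted p = 0.00389) without overlap with WT. Psmb9 was at 7.91, 8.53 and 7.79, with replicate 2 within the WT range, and fell by 0.69 ± 0.24 (adjusted p = 0.0484). This call was lost in 10 of 22 alternatives, among them without replicate 1 or 2 of WT and without replicate 1 or 3 of E2f8 KO. Psmb10 was at 7.02, 7.74 and 7.35 (-0.85 ± 0.34, adjusted p = 0.0828). Some alternatives called it lower, among them a fit of these 2 groups alone (adjusted p = 0.0252). Others were those without replicate 3 of WT (adjusted p = 0.0209) and without replicate 1 of Rb KO (adjusted p = 0.0276). Of the B cell markers, 14 of 15 fell in this comparison, with a median of -3.21. So did 14 of 17 macrophage and monocyte markers (median -1.54) and 6 of 8 T and NK cell markers (median -1.13). Of 14 granulocyte markers 9 rose. Over all genes 14.2% fell and 11.9% rose.

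Among the regulators, Psme4 fell by 0.88 ± 0.18 (adjusted p = 0.00553) to 10.83, 10.92 and 10.69 in E2f8 KO. Psme3 fell by 0.40 ± 0.08 (adjusted p = 0.00508) to 13.37, 13.36 and 13.36. Psmf1 fell by 0.49 ± 0.16 (adjusted p = 0.0349) to 11.92, 11.71 and 11.97, a call lost without any 1 of the 6 arrays compared. Psme1 and Psme2 differed by 0.04 ± 0.30 and 0.06 ± 0.22.

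No proteasome gene was called in Rb KO against WT, which differ by the Rb label alone (0 of 48, 1 at an unadjusted p under 0.05). Over all genes 0.0077% were called. Groups did not overlap for 1 of the 48, which was lower, against 6.28% of all genes (2.25% higher and 4.03% lower). The median was 0.04 over the 48 genes and 0.04 over all genes. It depended on single arrays, from -0.13 without replicate 1 of Rb KO to 0.20 without replicate 3. In this comparison the 95% intervals of the 31 standard subunits lay within -0.67 and 0.75. For Psmb8 the difference was 0.10 with an interval of -0.54 to 0.74, and for Psmb10 0.23 with -0.50 to 0.97. Psme4 stood at 11.60, 10.83 and 10.99 in Rb KO, below every WT array (-0.55 ± 0.18, adjusted p = 0.613). Without replicate 1 of Rb KO it was called, at -0.78 (adjusted p = 0.0322). That array was also the highest of Rb KO for 30 of the 31 standard subunits. Other groups held such arrays too: replicate 1 of WT was the highest of WT for 28 of the 31. In E2f8 KO replicate 3 was the highest for 24 and replicate 1 the lowest for 24.

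DKO against Rb KO, which differ by the E2f8 label among arrays that carry the Rb label, gave 24 changed genes, 18 higher and 6 lower, against 37.1% of all genes called, 19.5% higher and 17.6% lower. Groups did not overlap for 20 higher and 7 lower, against 43.6% of all genes (23.2% higher and 20.4% lower). The median was 0.44, against -0.01 over all genes, and 0.26 without replicate 3 of Rb KO. Of the 31 standard subunits 13 rose (41.9%) and 0 fell. Erythroid markers moved too: 6 of 14 rose and 2 fell, with a median of 0.26, and in Rb KO their mean was 12.70, 12.40 and 12.04 in replicates 1 to 3, where that of the standard subunits was 10.12, 9.71 and 9.39. Their part in the result was not tested. Psma7 rose by 1.07 ± 0.21 (adjusted p = 0.00213) and Psmd11 by 1.01 ± 0.15 (adjusted p = 0.000374). The arrays of Rb KO varied widely for such genes: Psma7 was at 8.86, 8.63 and 8.08 and Psmd7 at 10.19, 9.55 and 8.97. Without replicate 3 of Rb KO, the lowest of its group for 29 of the 31 standard subunits, 13 genes were called, 7 higher and 6 lower. Of all genes 26.4% were then called. The count was 15 without replicate 3 of DKO (30.7% of all genes) and 12 with a fit of these 2 groups alone (27.6%). Of the 24 calls, 9 held in each of 22 alternatives.

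The immunoproteasome genes again fell together in DKO against Rb KO. Psmb8 was at 7.64, 8.58 and 8.58 in Rb KO and fell by 2.11 ± 0.30 (adjusted p = 0.000276). Psmb9 was at 9.06, 8.96 and 8.90, and fell by 1.60 ± 0.24 (adjusted p = 0.00038). Psmb10 was at 7.76, 8.98 and 8.61, and fell by 1.59 ± 0.34 (adjusted p = 0.00299). All 15 B cell markers fell in this comparison too, where 17.6% of all genes fell. Psme4 fell by 0.90 ± 0.18 (adjusted p = 0.00231). Psme3 fell by 0.31 ± 0.08, a call lost without the variance trend, and Psmf1 by 0.46 ± 0.16 (adjusted p = 0.0336). Without replicate 1 of Rb KO the difference of Psmf1 was -0.29 and its call was lost (adjusted p = 0.098). Among other alternatives, the call was also lost without replicate 1 or 3 of DKO (adjusted p = 0.0926 and 0.105). The same held for a fit of these 2 groups alone (adjusted p = 0.0953) and for centring on the median (adjusted p = 0.0681).

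Between DKO and E2f8 KO no proteasome gene was called (0 of 48, 4 at an unadjusted p under 0.05), against 2.37% of all genes (1.73% higher and 0.647% lower), and the median was 0.12, or 0.08 without replicate 1 of E2f8 KO. Groups did not overlap for 12 higher and 7 lower of the 48, against 35% of all genes (18.1% higher and 17% lower). The difference of Psma7 had a 95% interval of -0.47 to 0.46. Psmb9 (-0.71, interval -1.22 to -0.19) and Psme4 (-0.58, interval -0.97 to -0.18) lay lower in all 3 DKO arrays than in any E2f8 KO array, at adjusted p = 0.144 and 0.122. Psme4 was called, with the same difference of -0.58, when replicate 1 of Rb KO was left out (adjusted p = 0.0222). It was also called in a fit of these 2 groups alone (adjusted p = 0.0226) and with array weights (adjusted p = 0.00443). Psmb9 was called with array weights (adjusted p = 0.0299) and with replicate 1 of Rb KO and replicate 3 of DKO both left out (adjusted p = 0.0428). The interaction, the difference of the E2f8 label's contrast between arrays with and without the Rb label, called 0 of 48 (2 at an unadjusted p under 0.05), against 0.077% of all genes (0.0539% higher and 0.0231% lower). Psmb9 had the smallest p of the 48 there (-0.91 ± 0.34, adjusted p = 0.81). Comparisons with WT share the WT arrays and comparisons of DKO share the DKO arrays, so none is an independent repeat of another.

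Psmc3ip, which is no subunit, had its own pattern. The WT arrays read 7.30, 6.99 and 6.81, those of E2f8 KO 7.13, 7.27 and 7.06, those of Rb KO 7.09, 7.18 and 6.96, and those of DKO 8.82, 8.94 and 7.18. Replicate 3 of DKO thus lay with the other groups, and that array had a granulocyte marker mean of 10.15 against 6.76 and 7.99. In DKO against WT it rose by 1.28 ± 0.35 (adjusted p = 0.0116), a call lost without replicate 1 or 2 of DKO. Without that array it was called against E2f8 KO, at 1.73 (adjusted p = 0.000619), and in the interaction, at 1.69 (adjusted p = 0.0248).

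Other genes of the pathway were counted from fixed lists. Of 10 tested partners outside the symbol rule, 3 rose in DKO against WT and 0 fell, where 20.6% of all genes rose and 17.6% fell, so that the share of this list was near that of all genes. Uchl5, a deubiquitinase of the cap, rose by 1.81 ± 0.35 (adjusted p = 0.00149), from 8.36, 7.57 and 7.60 to 9.14, 9.78 and 10.04. Usp14, the other cap-bound deubiquitinase, rose by 0.62 ± 0.21 and Txnl1 by 0.77 ± 0.24. Pomp, the maturation factor of the core, differed by -0.14 ± 0.25 (adjusted p = 0.712). Of 8 ubiquitin delivery genes 4 rose and 0 fell, beside the same 20.6% and 17.6%, among them the shuttle gene Ubqln2 (1.35 ± 0.15, adjusted p = 4.8e-05) and Uba6, of a ubiquitin-activating enzyme (1.17 ± 0.19).

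A list of 9 genes tied to the transcription of subunit genes held transcription factors and Ngly1, of the glycanase that processes the Nfe2l1 protein. Of the 9, 5 rose and 2 fell in DKO against WT, with 20.6% and 17.6% over all genes. Nfe2l1, whose product raises subunit transcription when the proteasome is inhibited, was at 9.41, 9.36 and 9.06 in WT and at 9.47, 9.55 and 9.28 in DKO (0.16 ± 0.17, adjusted p = 0.514). Its relative Nfe2l2 rose by 1.02 ± 0.15 (adjusted p = 0.000307). The NF-Y genes rose by 1.01 ± 0.20 (Nfya), 1.83 ± 0.29 (Nfyb) and 1.09 ± 0.17 (Nfyc), and Foxm1 by 1.09 ± 0.23. Ngly1 differed by 0.01 ± 0.17 (adjusted p = 0.985). Foxo4 and Stat3 fell by 1.13 ± 0.18 and 1.17 ± 0.33.

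The lists tied to the immunoproteasome moved with it in part. Of 8 interferon signalling genes 5 fell in DKO against WT and 0 rose, with 17.6% and 20.6% over all genes. Ifngr1, of an interferon gamma receptor chain, fell by 2.60 ± 0.40 and Irf1, of an interferon-induced factor, by 2.06 ± 0.37. Of 10 class I antigen processing genes 4 fell and 1 rose, beside the same 17.6% and 20.6%, with B2m, the light chain of class I, falling by 0.70 ± 0.08 (adjusted p = 4.17e-05). Tap1, the peptide transporter gene that lies beside Psmb9 and shares its promoter region, read 8.87, 9.35 and 8.73 in the WT arrays, 7.48, 8.18 and 7.94 in those of E2f8 KO, 9.76, 9.56 and 9.52 in those of Rb KO, and 8.71, 9.01 and 8.46 in those of DKO. Against WT it fell by 1.12 ± 0.23 in E2f8 KO (adjusted p = 0.00487) and was not called in DKO (-0.25 ± 0.23, adjusted p = 0.432), where Psmb9 fell by 1.40. Between DKO and E2f8 KO, Tap1 differed by 0.87 ± 0.23 (adjusted p = 0.069) and Psmb9 by -0.71 ± 0.24.

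Other probe sets exist for some genes and may read near-identical copies, which leaves those genes uncertain. Psma3 had 3 probe sets and Psma5, Psmb3, Psmc1 and Psmd2 had 2 each. The differences between DKO and WT were 0.56 and 0.48 for the probe sets of Psma5, 0.05 and 0.02 for Psmb3, 0.60 and 0.60 for Psmc1, and 0.10 and 0.02 for Psmd2. They had the same sign within each gene. Psma8 lay between 4.66 and 5.18 and Psmb11 between 5.32 and 6.10 over the 12 arrays, near or below the filter level of 5.84.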

How the data were processed

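Signals of 12 single-channel Affymetrix arrays were deposited by the authors on a log2 scale, as inferred from the range of the values. The submitters' processing notes name MAS5. The sources used here do not give background correction or normalization. The small number of arrays limits the precision. Of 35557 probe sets, 21789 had 1 gene symbol, of which 21698 were updated through gene numbers to RefSeq names of GRCm38.p6. The 40% of probe sets with the lowest mean were removed (log2 level 5.84).

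The 12 arrays, grouped by genotype label, were fitted together with limma 3.58.1 in R 4.3.3 (lmFit, eBayes with a variance trend), with 1 coefficient per label and 6 contrasts. P-values were two-sided and adjusted by Benjamini-Hochberg over 12980 genes, and genes at adjusted p under 0.05 were called. The procedure was tested on simulated data with independent normal noise. Of 12980 genes, 67 were raised 1.5-fold, 67 raised 2-fold and 66 raised 4-fold. For DKO against WT, 19.4% of the 1.5-fold, 70.1% of the 2-fold and 98.5% of the 4-fold changes were called. In the real comparison 38.2% of all genes were called. Recovery under the adjustment depends on the share of changed genes, so these rates do not carry over to it.

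Array values were given for the catalytic, activator and inhibitor genes and, in each other role, for the 2 genes with the smallest and the 1 with the largest F test p. The 5 genes with the smallest p were also named for E2f8 KO and DKO against WT and for DKO against Rb KO. In the other comparisons fewer were named. The members and lists were chosen with earlier results of these data known. No pairing by replicate number was seen: deviations of same-numbered arrays correlated between -0.38 and 0.57, with 7 of 18 pairs over 0.1. Those of differently numbered arrays correlated between -0.70 and 0.61, with 13 of 36 pairs over 0.1. Alternatives covered the filter, normalization, probe set choice, variance model, block and each array left out. Motifs were searched on both strands of RefSeq promoter windows.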

Additional observations from a re-analysis of the deposited data

How the results depend on the processing

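No call of a proteasome gene changed direction under any alternative run. Counts of called genes that moved by over 1.5 times were as follows. With array weights, E2f8 KO against WT gave 32 called genes in place of 12 (51.2% of all genes in place of 26.1%). DKO against E2f8 KO gave 5 in place of 0 (20.7% of all genes in place of 2.37%). With a fit of only the groups compared, E2f8 KO against WT gave 21 (33.2% of all genes). With that fit, DKO against Rb KO gave 12 in place of 24 (27.6% in place of 37.1%). DKO against E2f8 KO gave 1 (9.72%). Leaving out both replicate 1 of Rb KO and replicate 3 of DKO, an alternative chosen after seeing the data, gave 21 for E2f8 KO against WT, 1 for Rb KO against WT, 1 for the interaction and 2 for DKO against E2f8 KO. The shares of all genes called were 34.3%, 1.74%, 2.15% and 4.06% in that order. Leaving out 1 array at a time gave 6 to 22 calls for E2f8 KO against WT, 0 to 1 for Rb KO against WT, 17 to 32 for DKO against WT, 13 to 35 for DKO against Rb KO, and 0 to 1 both for the interaction and for DKO against E2f8 KO. The share of all genes called then ran from 11.8% to 33.8% for E2f8 KO against WT and from 0.0077% to 1.08% for Rb KO against WT. For DKO against WT it ran from 28.1% to 43.3%, and for DKO against Rb KO from 26.4% to 44.6%. For the interaction it ran from 0.0154% to 0.378%, and for DKO against E2f8 KO from 0.609% to 5.49%. With the replicate number as a block, the counts were 12, 0 and 26 for E2f8 KO, Rb KO and DKO, each against WT, then 23 and 0 for DKO set against Rb KO and against E2f8 KO, and 0 for the interaction, and since the arrays share only a number no pairing is implied. The shares of all genes called were 26.9%, 0.0077%, 38%, 36.6%, 1.91% and 0.1% in the same order. Leaving out the 2 genes that are no subunits, also chosen after seeing the data, gave 11, 0, 25, 22, 0 and 0 in the same order. Quantile normalization and centring on the median gave 16 and 8 calls for E2f8 KO against WT, 25 and 25 for DKO against WT, and 24 and 21 for DKO against Rb KO. The shares of all genes called were 29.7% and 23.9%, 39.5% and 36.7%, and 38.1% and 35.3% in the same order. The cause of these shifts was not tested.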
